A study of Homo sapiens with 24 samples.

Results

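Integrins are the receptors that hold cells to the extracellular matrix, and laminins are the basement membrane proteins that several of them bind. Their genes were taken as every row of the count files whose symbol starts with ITGA or ITGB and a subunit number or letter, or is LAMA, LAMB or LAMC and a number. This matched 42 of 23106 symbols: 26 integrin subunits (18 alpha and 8 beta), 12 laminin chains and 4 symbols that share the prefix without being a subunit (ITGB1BP1, ITGB1BP2, ITGB3BP and ITGBL1). Polyadenylated RNA was sequenced from 4 established human cancer cell lines, A549 (lung), HCT-116 (colorectal), PC3 (prostate) and T47D (breast), each kept in 21% oxygen (normoxia) or in 0.5% oxygen for 16 h (hypoxia), with 3 libraries in each of the 8 groups. No gene was altered in any group, both groups of a line shared their medium (F12K for A549 and PC3, McCoy's 5a for HCT-116, DMEM for T47D), and each tissue is represented by a single line grown on plates. The comparison of hypoxia with normoxia asks which of these genes respond to low oxygen in each line, and the comparison of the normoxic libraries asks which receptors and laminin chains each line carries.

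Each integrin is a pair of 1 alpha and 1 beta subunit, and the pairing sets which matrix protein is bound. ITGB1 pairs with most alpha subunits, ITGAV and ITGA5 take part in receptors for fibronectin and vitronectin that read a short RGD motif, ITGA1, ITGA2, ITGA10 and ITGA11 form collagen receptors, and ITGA3, ITGA6 and ITGA7 form laminin receptors. ITGA6 with ITGB4 forms the laminin receptor of hemidesmosomes, the rivets that anchor epithelial cells to the basement membrane. Laminins are trimers of an alpha, a beta and a gamma chain, and LAMA3 and LAMB3 are chains of the laminin that epithelial hemidesmosomes bind.

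RefSeq promoter windows (GRCh38.p14, from 250 bases before to 50 after a start) are shown for 3 genes that were upregulated in several lines: ITGA5 and LAMB3, upregulated in all 4 lines, and LAMC1, upregulated in 3. Capitals mark the letters ACGTG or GCGTG, the core that hypoxia-inducible factors (HIF) bind, searched on both strands, so that CACGT or CACGC in capitals is a match on the other strand. Matches on the 2 strands can overlap, as in CACGTG. For LAMB3 the window furthest upstream of its 3 windows is given. All are written in the direction of the gene.
ITGA5, chr12:54419217-54419516, minus strand: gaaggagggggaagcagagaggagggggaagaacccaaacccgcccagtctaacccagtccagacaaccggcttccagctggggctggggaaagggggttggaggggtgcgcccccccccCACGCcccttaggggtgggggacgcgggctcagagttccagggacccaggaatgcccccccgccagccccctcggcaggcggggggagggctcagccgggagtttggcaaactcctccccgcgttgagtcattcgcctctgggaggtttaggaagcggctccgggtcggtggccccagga
LAMB3, chr1:209652376-209652675, minus strand: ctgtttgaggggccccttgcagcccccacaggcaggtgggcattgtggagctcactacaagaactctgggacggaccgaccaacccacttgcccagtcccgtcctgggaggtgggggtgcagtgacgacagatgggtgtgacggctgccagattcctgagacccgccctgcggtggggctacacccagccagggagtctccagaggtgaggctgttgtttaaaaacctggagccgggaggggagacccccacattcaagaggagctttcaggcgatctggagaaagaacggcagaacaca
LAMC1, chr1:183023170-183023469, plus strand: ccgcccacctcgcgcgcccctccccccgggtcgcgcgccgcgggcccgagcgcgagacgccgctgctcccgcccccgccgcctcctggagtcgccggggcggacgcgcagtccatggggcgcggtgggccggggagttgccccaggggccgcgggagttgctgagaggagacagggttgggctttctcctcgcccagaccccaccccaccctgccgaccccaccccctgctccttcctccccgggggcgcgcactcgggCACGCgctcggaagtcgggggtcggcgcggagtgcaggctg
The ITGA5 window held 1 match, the LAMC1 window held 1, in the bases after the start, and none of the 3 LAMB3 windows held one. Of the 8 members upregulated in at least 3 lines, 6 had a window and 5 of these had a match in at least 1 window. Over all genes, 48.4% of the 35116 windows and 52.4% of the 27305 genes held a match, against 15 of the 38 member windows (39.5%) and 13 of the 30 members with a window. Such a match is a description of the letters and not a binding site.

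Total counts ran from 22698584 to 62850747 per library, with a median of 56109795.5, so that 3 counts corresponded to 0.0477 to 0.132 CPM (counts scaled to a common library size). The 4 epithelial markers EPCAM, CDH1, KRT8 and KRT18 were expressed in every line, and 3 of 3 breast markers in T47D. In the other lines few markers of the labelled tissue were expressed: 0 of 3 lung markers were expressed in A549, 1 of 3 colon markers in HCT-116 (CDX1 was at 0) and 1 of 3 prostate markers in PC3 (KLK3 was at 0). None of 4 leukocyte markers was expressed in any line, and their summed level was at most 0.780 CPM in any library. Of 3 endothelial markers, 1 was expressed in PC3 and 0 in the other lines, and of 4 fibroblast markers, 1 was expressed in each line. Expressed here means a mean of at least 1 CPM over the 6 libraries of a line.

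Between 24 and 30 of the 42 members were expressed in a line: 30 in A549, 24 in HCT-116, 29 in PC3 and 24 in T47D. A core of 20 was expressed in all 4 lines, among them ITGA2, ITGA3, ITGA5, ITGA6, ITGA7, ITGAE, ITGAV, ITGB1, ITGB4, ITGB5, ITGB8, LAMA3, LAMA5, LAMB1, LAMB2, LAMB3, LAMC1, ITGB1BP1 and ITGB3BP. Another 16 were expressed in 1 to 3 lines, among them ITGA11, ITGAM and ITGB3 in A549 alone, LAMA2 in HCT-116 alone, LAMA1, ITGB7 and ITGBL1 in PC3 alone and ITGA10 and ITGAL in T47D alone. The 6 that reached 1 CPM in no line were ITGA8, ITGA9, ITGAD, ITGAX, ITGB1BP2 and LAMB4.

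Levels of different genes were compared per kilobase of the longest annotated transcript (RPKM, mean ± SD of the 3 normoxic libraries). ITGB1, the common beta subunit, stood at 466 ± 15.3 RPKM in A549, 258 ± 11.9 in PC3, 89.4 ± 17.2 in HCT-116 and 49.2 ± 13.1 in T47D. Over all 6 libraries it was the highest member per kilobase in A549, HCT-116 and PC3, whereas LAMB2, a beta chain of basement membrane laminins, was highest in T47D with a normoxic level of 43.8 ± 5.84 RPKM. In normoxia alone ITGB3BP, a centromere protein, had the highest mean in HCT-116 at 123 ± 75.6 RPKM, above ITGB1 by less than its SD. ITGA3, a laminin receptor subunit, ranked second in A549 (121 ± 20.5 RPKM) and in PC3 (131 ± 17.2 RPKM) but stood at 6.84 ± 0.954 RPKM in T47D. The 5 highest members also took in ITGB5, ITGAV and LAMC1 in A549, ITGB4, ITGB3BP and ITGA6 in HCT-116, LAMB3 and ITGB4 in PC3, and ITGB4, ITGB5 and LAMA5 in T47D.

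**Figure D1:**
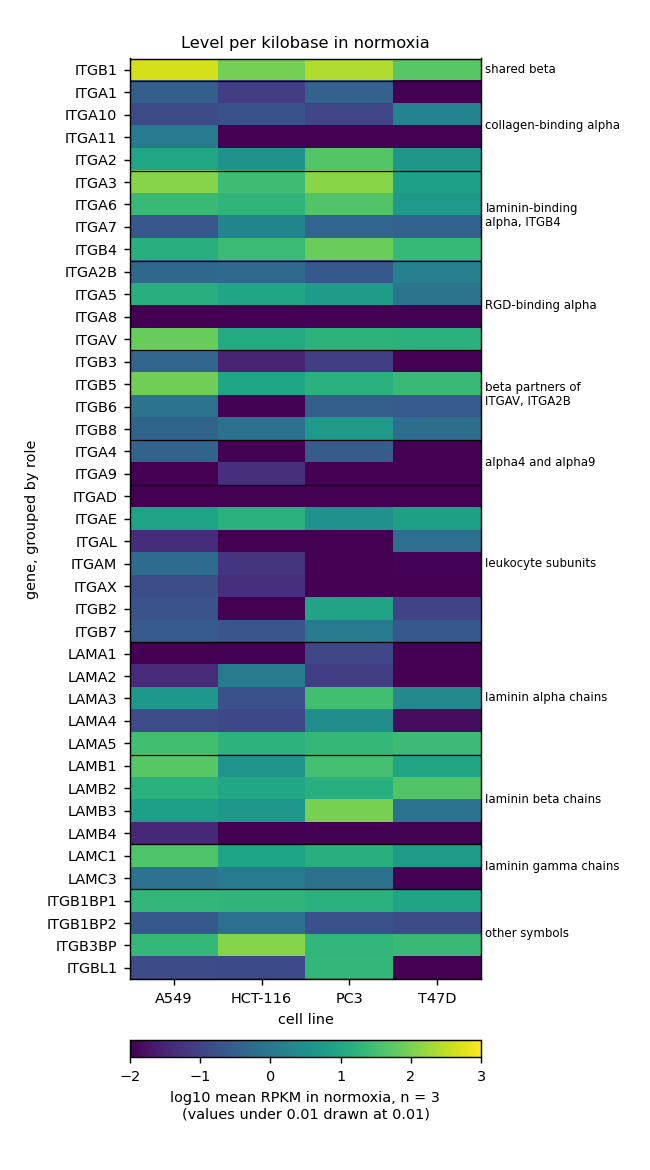
Mean level per kilobase (log10 RPKM, colour, n = 3 normoxic libraries) of members (vertical axis, grouped by role) in the 4 lines (horizontal axis). ITGB1 is the highest member in A549, PC3 and T47D and ITGB3BP in HCT-116, and LAMA3 and LAMB3 are highest in PC3.

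LAMA3 and LAMB3 were both highest in PC3. LAMA3 stood at 31.2 ± 4.94 RPKM in PC3, 4.67 ± 0.349 in A549, 2.30 ± 0.633 in T47D and 0.184 ± 0.0628 in HCT-116, so that the mean of the highest line was 170.0 times that of the lowest. LAMB3 stood at 95.6 ± 19.5, 6.63 ± 0.263, 4.61 ± 1.49 and 0.793 ± 0.398 RPKM in PC3, A549, HCT-116 and T47D. The step from PC3 to A549 exceeded the spread for LAMA3 (adjusted p = 2.66e-08) and LAMB3 (2.06e-08), whereas A549 and HCT-116 could not be ordered for LAMB3 (adjusted p = 0.240). A549 was highest for ITGB1, ITGAV, ITGB5, LAMC1, LAMB1 and ITGA5, HCT-116 for LAMA2, ITGA7 and ITGB3BP. LAMA5, the alpha chain of many adult epithelial basement membranes, stood at 30.8 ± 4.37, 26.4 ± 14.1, 21.3 ± 2.49 and 16.8 ± 4.52 RPKM in A549, T47D, PC3 and HCT-116, and no neighbours in that order differed beyond their spread (adjusted p = 0.552, 0.398 and 0.361). The ends of the order did differ, with LAMA5 lower in HCT-116 than in A549 (log2 difference -0.88, adjusted p = 0.0203).

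Of the 39 members tested in the fit of all 24 libraries, 29 differed between normoxic A549 and HCT-116 (65.0% of all tested genes did), 28 between A549 and PC3 (60.5%), 32 between A549 and T47D (67.7%), 34 between HCT-116 and PC3 (66.0%), 32 between HCT-116 and T47D (69.0%) and 30 between PC3 and T47D (68.1%). The members' shares, 71.8% to 87.2% in these pairs, are set beside those of all genes as a description. In direction, 26 of the 32 that differed between A549 and T47D and 23 of the 30 between PC3 and T47D were lower in T47D. HCT-116 was the lower line for 22 of the 29 that differed from A549 and 23 of the 34 that differed from PC3. Of the 32 between HCT-116 and T47D, 22 were lower in T47D, and between A549 and PC3 14 were higher in each. The shares of all genes by direction are not given here.

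By the calls, hypoxia raised more members than it lowered in each line. In T47D, where few were called, this order did not hold with the GC and length correction given below. Of the members tested, 11 of 36 were upregulated in A549 (17.6% of all tested genes were), 11 of 31 in HCT-116 (23.3%), 14 of 33 in PC3 (16.6%) and 3 of 27 in T47D (6.55%). Downregulated members numbered 3 in A549 (17.8% of all genes), 8 in HCT-116 (27.0%), 1 in PC3 (15.7%) and 2 in T47D (6.69%). Nothing in the labels says that the 3 libraries of a group came from separate cultures, so the p-values measure the spread between these libraries, which may be technical. A gene was called where edgeR's quasi-likelihood test, run on all genes of a line, gave an adjusted p below 0.05 together with a change of more than 1.2-fold. Among the 38 subunits and chains alone the upregulated and downregulated counts were 11 and 2 of 33 tested, 11 and 5 of 27, 13 and 0 of 30, and 3 and 1 of 25 in the same order of lines. Their median log2 fold change was 0.25, 0.46, 0.41 and 0.27, against -0.01, -0.03, -0.01 and -0.01 over all genes.

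Several counts moved with single libraries. In T47D 0 members were upregulated without normoxia replicate 1, without normoxia replicate 2 or without hypoxia replicate 1, and 7 without hypoxia replicate 3. There, 0 were downregulated without normoxia replicate 1 or normoxia replicate 2, 1 without hypoxia replicate 1 or hypoxia replicate 2, and 3 without hypoxia replicate 3. In PC3 8 members were upregulated without normoxia replicate 1 or without hypoxia replicate 2, and 2 were downregulated without normoxia replicate 2. In HCT-116 5 were downregulated without normoxia replicate 2. Fold changes of all genes also moved with base composition: in HCT-116 the median log2 fold change was -0.48 in the lowest tertile of GC content and 0.38 in the highest. The subunits and chains had a median GC content of 51.2% and a median transcript of 5878.5 bases, against 48.5% and 3093 bases for all symbols. When the fit took GC content and length into account, 42 of the 53 calls of members were kept, 30 of 39 upward and 12 of 14 downward, and the counts up and down became 9 and 3 in A549, 11 and 8 in HCT-116, 10 and 4 in PC3 and 1 and 2 in T47D. The summed level of the epithelial markers rose in 3 lines. It was 1507 to 2514 CPM in normoxic and 4675 to 5491 in hypoxic HCT-116, and 2722 to 3213 and 3474 to 3518 in PC3. In T47D it was 5055 to 9534 and 10423 to 17424, and in A549 the groups overlapped. KRT8 and KRT18 made up most of this sum. CDH1 rose with it, and EPCAM did not. In HCT-116, EPCAM held 14606 of 51576574 counts in normoxia replicate 1 and 13687 of 61067988 in hypoxia replicate 1. CDH1 held 1182 and 3884 counts in these libraries. The part of these markers in the members' changes was not tested.

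**Figure D2:**
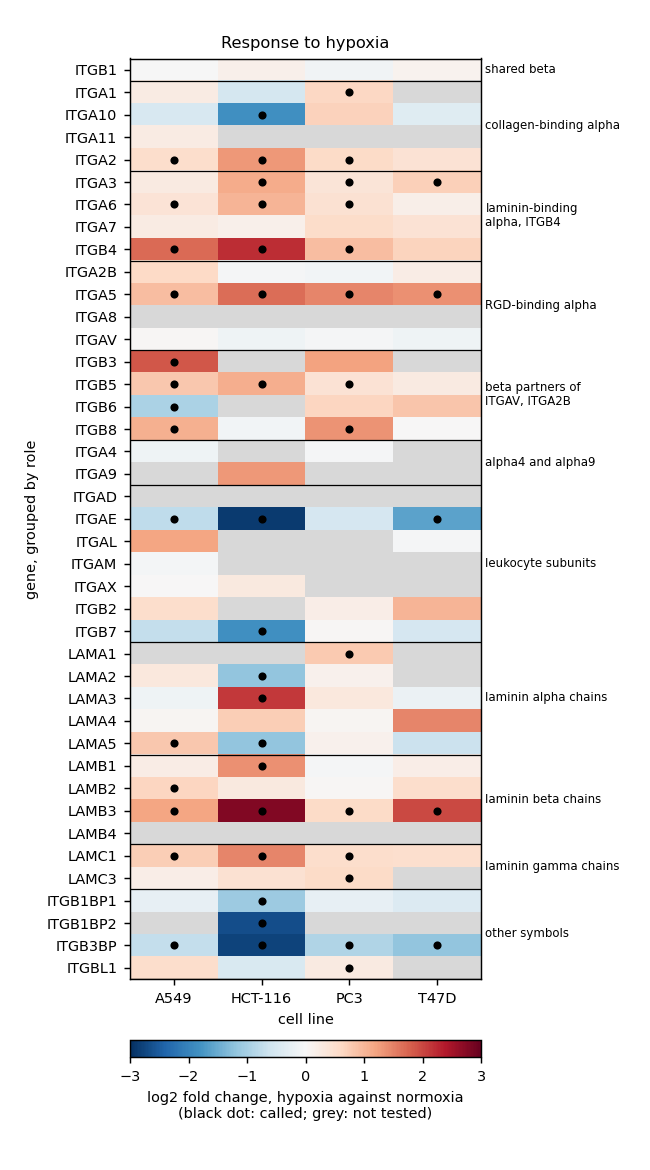
Log2 fold change of hypoxia against normoxia (colour) for members (vertical axis, grouped by role) in the 4 lines (horizontal axis), with a black dot where the change was called and grey where the gene was not tested. ITGA5 and LAMB3 carry 4 upward calls, and ITGB3BP carries 4 downward calls.

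Calls were shared between lines as follows. ITGA5 and LAMB3 were upregulated in all 4 lines, ITGA2, ITGA3, ITGA6, ITGB4, ITGB5 and LAMC1 in 3, and ITGB8 in A549 and PC3. Of the 39 members tested in any line, 10 were upregulated in at least 2 lines (15.3% of all genes) and 8 in at least 3 (6.97%), with 2 in all 4 (1.9%). ITGB3BP was downregulated in all 4 lines and ITGAE in 3, which makes 2 members for at least 2 lines (15.9% of all genes), the same 2 for at least 3 (7.79%) and 1 for all 4 (2.47%). LAMA5 was the single member called in opposite directions in 2 lines (1.14% of all genes), and 12 members were tested and called in no line.

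The effect of hypoxia differed between the lines for 12 of the 39 members tested (18.3% of all genes), in a test of the interaction over all 24 libraries. For 11 of them, LAMA3, LAMB1, ITGB4, ITGAE, ITGB3BP, ITGB8, LAMB3, LAMA5, ITGB5, LAMC1 and ITGA3, the gene was also tested in each line. The other, ITGA11, held 491 to 834 counts per library in A549 and 0 to 7 in the other lines, so that its value shows no difference between lines. The count was 4 without HCT-116 normoxia replicate 2 and 7 without HCT-116 hypoxia replicate 2. LAMA3, LAMB1, ITGB4 and ITGB8 passed under each of 30 alternatives, whereas ITGB5 passed under 21, LAMC1 under 10 and ITGA3 under 5. The GC and length correction was fitted within single lines and was not among these alternatives. Whether the interactions hold with it was therefore not tested.

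ITGA5, which joins ITGB1 in the fibronectin receptor, rose in every line. It lies on chromosome 12, 54789045 to 54813050, minus strand (GRCh37). In A549 it stood at 56.5, 77.2 and 78.4 CPM in normoxia and 139, 138 and 130.2 CPM in hypoxia, a log2 fold change of 0.94 ± 0.13, adjusted p = 0.000392 (± is the SE, here and for every log2 fold change). HCT-116 gave 44.7, 39.9 and 46.5 CPM in normoxia and 115, 187 and 155 CPM in hypoxia (1.68 ± 0.21, adjusted p = 0.000114). In both lines every hypoxic library lay well above every normoxic one. PC3 had 30.2, 31.8 and 24.2 CPM in normoxia and 97.9, 70.9 and 78.8 CPM in hypoxia (1.47 ± 0.14, adjusted p = 0.000308). T47D carried it at a far lower level, 3.90, 5.05 and 3.79 CPM in normoxia and 15.1, 14.6 and 5.29 CPM in hypoxia (1.37 ± 0.35, adjusted p = 0.0241). The groups did not overlap in any line, although hypoxia replicate 3 of T47D, at 5.29 CPM, lay next to the normoxic libraries. In T47D the call was lost without hypoxia replicate 1 (1.14, adjusted p = 0.0678), normoxia replicate 1 (1.33, adjusted p = 0.160), normoxia replicate 2 (1.52, adjusted p = 0.0800) or normoxia replicate 3 (1.27, adjusted p = 0.0529). It was kept in all lines with the GC and length correction, whose values were 0.72, 1.24, 1.29 and 1.12. With the block the T47D value was 1.25, adjusted p = 0.0110. The effect did not differ detectably between lines (interaction adjusted p = 0.264).

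ITGB1 and ITGAV were called in no line without a correction. ITGB1 ranged over 2501 to 2709.8 CPM in A549, 412 to 742 CPM in HCT-116, 1369.9 to 1494 CPM in PC3 and 191 to 364 CPM in T47D, with log2 fold changes of -0.02 ± 0.10, 0.15 ± 0.22, -0.11 ± 0.08 and 0.10 ± 0.25 and overlapping groups in every line. ITGAV, the alpha subunit of the vitronectin receptors, gave 0.04 ± 0.14, -0.14 ± 0.20, -0.03 ± 0.09 and -0.13 ± 0.24, likewise with overlap in every line. With the GC and length correction ITGAV was called upregulated in HCT-116 (0.57, adjusted p = 0.0419), where ITGB1 gave 0.53, adjusted p = 0.0577. With the block added, ITGB1 was called upregulated in HCT-116 (0.52, adjusted p = 0.0286) and ITGAV in A549 (0.26, adjusted p = 0.0478).

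**Figure D3:**
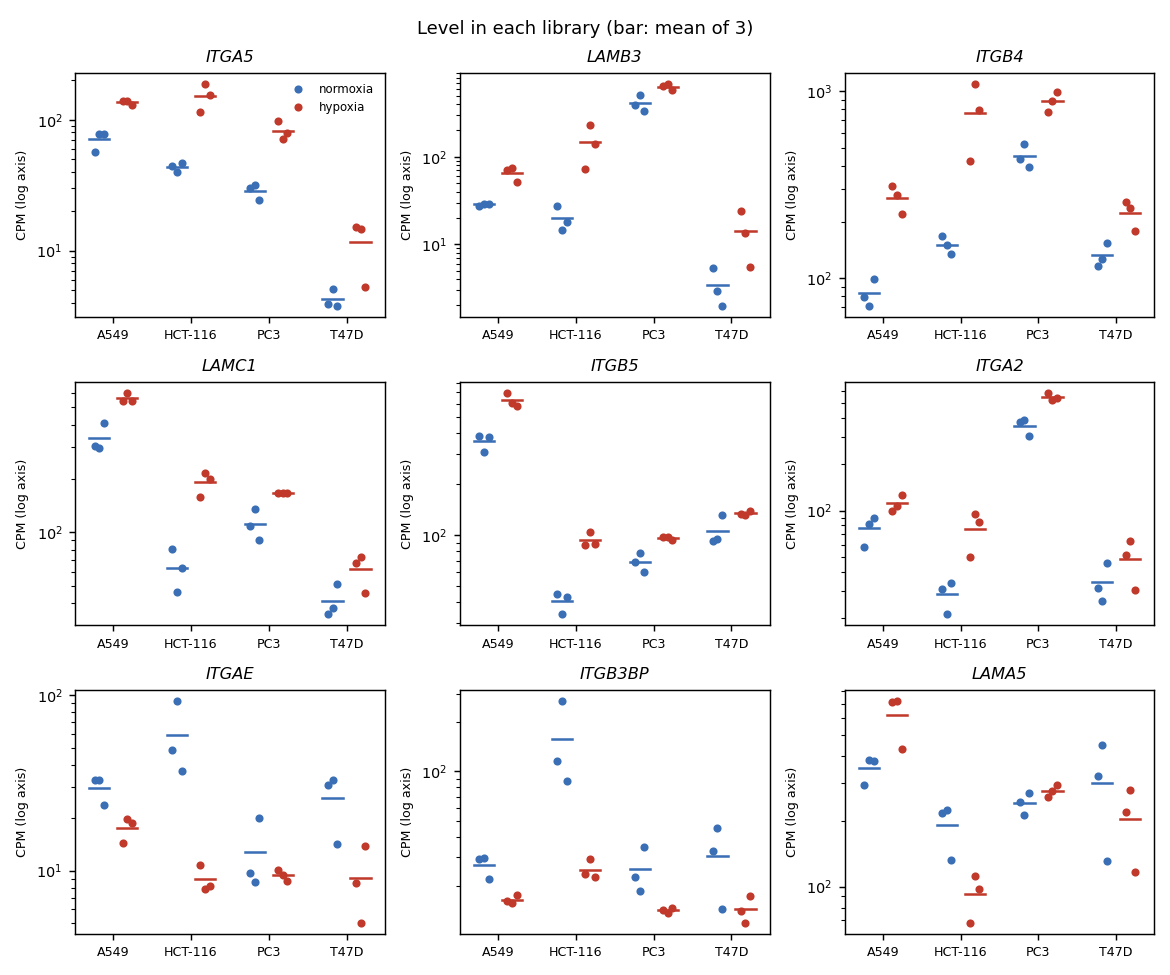
CPM in each library (points, log axis) for 9 members in the 4 lines (horizontal axis), with normoxia in blue, hypoxia in red and a bar at the mean of 3. ITGA5 rises in all 4 lines, ITGAE and ITGB3BP lie lower in hypoxia with overlap for ITGAE in PC3 and ITGB3BP in T47D, and LAMA5 lies higher in A549 and lower in HCT-116.

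Of the beta subunits that pair with ITGAV, ITGB5 rose in 3 lines, ITGB8 in 2 and ITGB3 in 1, and ITGB6 fell in 1. ITGB5, part of a vitronectin receptor, stood at 388, 309.8 and 382 CPM in normoxia and 696, 607 and 586 CPM in hypoxia in A549 (0.80 ± 0.12, adjusted p = 0.000669). HCT-116 gave 44.7, 33.9 and 42.8 CPM in normoxia and 87.6, 105 and 88.2 CPM in hypoxia (1.09 ± 0.19, adjusted p = 0.000541), and PC3 69.4, 77.8 and 59.9 CPM in normoxia and 97.3, 97.5 and 93.1 CPM in hypoxia (0.42 ± 0.10, adjusted p = 0.0111). The groups were apart in these 3 lines but overlapped in T47D (92.0, 94.4 and 132 CPM in normoxia and 132, 132 and 139 CPM in hypoxia), where the change was 0.27 ± 0.20, adjusted p = 0.386. ITGB8, which with ITGAV binds latent transforming growth factor beta, rose in A549 (3.74, 2.94 and 4.44 CPM in normoxia and 8.33, 7.72 and 7.28 CPM in hypoxia, 1.07 ± 0.19, adjusted p = 0.00163) and in PC3 (45.6, 45.8 and 37.1 CPM in normoxia and 167, 93.7 and 77.4 CPM in hypoxia, 1.35 ± 0.24, adjusted p = 0.00463). It gave -0.08 ± 0.31, adjusted p = 0.844 in HCT-116, where it ranged over 4.13 to 8.92 CPM, and 0.01 ± 0.25, adjusted p = 0.977 in T47D, where it ranged over 5.04 to 7.27 CPM. Both comparisons overlapped. The effect of hypoxia differed between the lines for ITGB5 (interaction adjusted p = 0.0246) and ITGB8 (0.0187).

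ITGB3, the other beta subunit of the vitronectin receptors and of the platelet receptor, rose in A549 from a low level, 1.63, 2.99 and 3.02 CPM in normoxia and 7.99, 8.06 and 11.96 CPM in hypoxia (1.86 ± 0.26, adjusted p = 0.000330), and gave 0.539, 0.681 and 0.299 CPM in normoxia and 1.87, 0.855 and 1.01 CPM in hypoxia in PC3 (1.22 ± 0.43, adjusted p = 0.0517), without overlap in either line. It was not tested in HCT-116 and T47D, where it stayed under 0.5 CPM in every library. ITGB6, an epithelial partner of ITGAV, was the most strongly downregulated member expressed in A549, at 3.25, 5.23 and 2.67 CPM in normoxia and 1.43, 2.54 and 1.89 CPM in hypoxia (-0.94 ± 0.30, adjusted p = 0.0303). That call was lost without hypoxia replicate 1 (-0.74, adjusted p = 0.0993), hypoxia replicate 3 (-0.91, adjusted p = 0.0597) or normoxia replicate 2 (-0.61, adjusted p = 0.175), and with the GC and length correction (-0.78, adjusted p = 0.0637). In PC3 and T47D ITGB6 gave 0.65 ± 0.38, adjusted p = 0.206 and 0.83 ± 0.57, adjusted p = 0.339, with overlapping groups.

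ITGB4, the hemidesmosome subunit, had the largest upward change of any laminin receptor. It lies on chromosome 17, 73717408 to 73753899, plus strand (GRCh37). A549 gave 79.5, 71.2 and 98.5 CPM in normoxia and 311, 278 and 219.6 CPM in hypoxia (1.69 ± 0.16, adjusted p = 1.71e-05), a 3.24-fold rise. HCT-116 gave 168, 150.4 and 135 CPM in normoxia and 422, 1089.8 and 794 CPM in hypoxia (2.22 ± 0.30, adjusted p = 0.000162), a 4.65-fold rise. In PC3, which held the most ITGB4, it stood at 436, 520.4 and 391 CPM in normoxia and 771, 889 and 992 CPM in hypoxia (0.93 ± 0.12, adjusted p = 0.00152). No groups overlapped in these lines, nor in T47D (116, 127 and 155 CPM in normoxia and 254, 238 and 179 CPM in hypoxia), where the change of 0.68 ± 0.21, adjusted p = 0.0526 missed the threshold. Once the fit paired libraries by replicate number (the block), the T47D change was 0.67 with an adjusted p of 0.0459. The change differed between lines (interaction adjusted p = 0.00644). ITGB4 has a GC content of 63.6%, and with the GC and length correction its values were 1.28, 1.34 and 0.51 in A549, HCT-116 and PC3, all still called. In T47D the corrected value was 0.25, adjusted p = 0.344, and with the block added to that correction 0.26, adjusted p = 0.219.

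Its partner ITGA6 changed less. In A549 it stood at 126, 134 and 152 CPM in normoxia and 177, 182 and 189.6 CPM in hypoxia (0.41 ± 0.11, adjusted p = 0.0120), in HCT-116 at 129, 84.2 and 119.9 CPM in normoxia and 199, 293 and 239 CPM in hypoxia (1.01 ± 0.22, adjusted p = 0.00227) and in PC3 at 276, 284 and 221 CPM in normoxia and 381, 359 and 366 CPM in hypoxia (0.45 ± 0.10, adjusted p = 0.0108). None of these groups overlapped. T47D gave 25.0, 23.6 and 35.2 CPM in normoxia and 37.2, 38.0 and 24.1 CPM in hypoxia, with overlap (0.17 ± 0.22, adjusted p = 0.648). The A549 call was lost without normoxia replicate 1 (0.35, adjusted p = 0.0752) or normoxia replicate 2 (0.39, adjusted p = 0.0517). ITGA3, which pairs with ITGB1 as a laminin receptor, rose in HCT-116 (162, 150.2 and 147 CPM in normoxia and 269, 467 and 349 CPM in hypoxia, 1.11 ± 0.23, adjusted p = 0.00139), in PC3 (743, 799.7 and 616 CPM in normoxia and 962, 1007 and 946 CPM in hypoxia, 0.38 ± 0.10, adjusted p = 0.0187) and in T47D (33.7, 35.3 and 43.4 CPM in normoxia and 76.7, 71.2 and 46.7 CPM in hypoxia, 0.71 ± 0.22, adjusted p = 0.0466). The groups were apart in all 3 and overlapped in A549 (557, 656 and 781 CPM in normoxia and 753, 865 and 779 CPM in hypoxia, 0.26 ± 0.13, adjusted p = 0.144). The PC3 call was lost without hypoxia replicate 1 (0.39, adjusted p = 0.0588), hypoxia replicate 2 (0.36, adjusted p = 0.0844) or normoxia replicate 1 (0.41, adjusted p = 0.0568), and the T47D call without hypoxia replicate 1 (0.58, adjusted p = 0.188), hypoxia replicate 2 (0.65, adjusted p = 0.136), normoxia replicate 1 (0.66, adjusted p = 0.216) or normoxia replicate 2 (0.68, adjusted p = 0.156). None of the 3 ITGA3 calls was kept with the GC and length correction, with values of 0.38, adjusted p = 0.141 in HCT-116, 0.03, adjusted p = 0.756 in PC3 and 0.34, adjusted p = 0.203 in T47D (0.34, adjusted p = 0.141 with the block added). ITGA7, the muscle laminin receptor subunit, was called in no line, with log2 fold changes from 0.15 in HCT-116 to 0.55 in PC3.

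Of the collagen receptors, ITGA2 rose in 3 lines. A549 gave 58.2, 82.3 and 89.0 CPM in normoxia and 99.9, 107 and 127 CPM in hypoxia (0.53 ± 0.15, adjusted p = 0.0182), HCT-116 30.8, 21.2 and 33.6 CPM in normoxia and 49.9, 94.3 and 84.9 CPM in hypoxia (1.30 ± 0.25, adjusted p = 0.000969) and PC3 376, 389 and 306 CPM in normoxia and 584, 526 and 540.1 CPM in hypoxia (0.58 ± 0.10, adjusted p = 0.00470). The groups did not overlap in these lines, whereas in T47D (31.2, 25.8 and 45.6 CPM in normoxia and 51.6, 63.5 and 30.6 CPM in hypoxia) hypoxia replicate 3 lay inside the normoxic range (0.43 ± 0.27, adjusted p = 0.302). The A549 call was lost without normoxia replicate 1 (0.37, adjusted p = 0.0762). ITGA1 rose in PC3 from 3.60 to 4.25 CPM to 6.03 to 6.59 CPM (0.61 ± 0.15, adjusted p = 0.0144), a call lost without normoxia replicate 1 (0.55, adjusted p = 0.0549). ITGA1 shares 499 exonic bases on the same strand with PELO, which lies within it. ITGA10 fell in HCT-116 at 0.192 to 1.30 CPM (-1.85 ± 0.56, adjusted p = 0.0145), a call lost without hypoxia replicate 2 (-1.59, adjusted p = 0.0510) or normoxia replicate 2 (-1.46, adjusted p = 0.0862). In T47D ITGA10 gave -0.36 ± 0.42, adjusted p = 0.602, and was called downregulated with the correction and the block (-0.57, adjusted p = 0.0455). ITGA11 was tested in A549 alone and gave 0.25 ± 0.17, adjusted p = 0.282.

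Among the laminin chains, LAMB3 was upregulated in all 4 lines. It lies on chromosome 1, 209788215 to 209825770, minus strand (GRCh37). A549 stood at 27.2, 29.2 and 29.2 CPM in normoxia and 71.0, 74.0 and 50.9 CPM in hypoxia (1.19 ± 0.14, adjusted p = 0.000130) and HCT-116 at 27.0, 14.7 and 17.8 CPM in normoxia and 72.6, 232 and 142 CPM in hypoxia (2.77 ± 0.36, adjusted p = 0.000142), the largest rise of any member in any line at 6.82-fold. PC3, with the highest level, gave 395, 503 and 337 CPM in normoxia and 636, 673 and 579 CPM in hypoxia (0.57 ± 0.13, adjusted p = 0.0111), and T47D, with the lowest, 5.31, 2.93 and 1.99 CPM in normoxia and 23.8, 13.4 and 5.56 CPM in hypoxia (1.97 ± 0.47, adjusted p = 0.0188). The groups did not overlap in any line, though in T47D normoxia replicate 1 at 5.31 CPM and hypoxia replicate 3 at 5.56 CPM almost met. The PC3 call was lost without hypoxia replicate 2 (0.52, adjusted p = 0.0510), and the T47D call without hypoxia replicate 1 (1.38, adjusted p = 0.0519), normoxia replicate 1 (2.46, adjusted p = 0.0684) or normoxia replicate 2 (1.88, adjusted p = 0.108). With the GC and length correction the T47D change was 1.68, adjusted p = 0.0510, and with the block added to that correction 1.62, adjusted p = 0.000678. The change differed between lines (interaction adjusted p = 0.0187).

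LAMA3, the alpha chain that assembles with LAMB3, was upregulated in HCT-116. LAMA3 stood at 2.18, 1.21 and 2.49 CPM in normoxia and 5.97, 11.3 and 10.8 CPM in hypoxia in HCT-116 (2.13 ± 0.33, adjusted p = 0.000267), a 4.38-fold rise from the lowest level of the 4 lines. It gave 359, 367 and 272 CPM in normoxia and 448, 390.1 and 448 CPM in hypoxia in PC3, without overlap but short of the threshold (0.32 ± 0.12, adjusted p = 0.0630). A549 (48.5, 53.9 and 46.7 CPM in normoxia and 54.2, 49.96 and 32.6 CPM in hypoxia, -0.13 ± 0.17, adjusted p = 0.574) and T47D (30.2, 26.2 and 17.1 CPM in normoxia and 33.5, 24.5 and 11.9 CPM in hypoxia, -0.17 ± 0.33, adjusted p = 0.759) overlapped. LAMA3 had the smallest interaction p of the members (adjusted p = 0.00198). With the GC and length correction it was called downregulated in A549 (-0.53, adjusted p = 0.0134), and with the block added also in T47D (-0.52, adjusted p = 0.0248). The corrected value in PC3 was -0.05, adjusted p = 0.726.

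**Figure D4:**
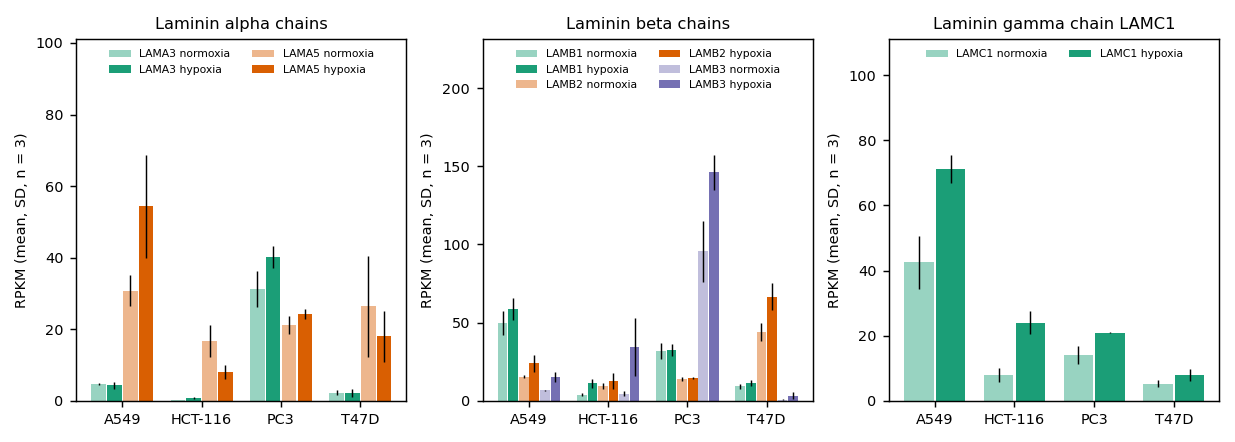
Level per kilobase (RPKM, bars with SD, n = 3) of laminin alpha, beta and gamma chains in the 4 lines (horizontal axis), pale in normoxia and full colour in hypoxia. LAMA3 and LAMB3 are highest in PC3, LAMB2 in T47D, and LAMB3 becomes the highest beta chain of HCT-116 in hypoxia.

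LAMC1, the gamma chain of most laminins, rose in A549 (303, 298 and 412 CPM in normoxia and 543, 604 and 546 CPM in hypoxia, 0.74 ± 0.14, adjusted p = 0.00181), in HCT-116 (81.1, 46.3 and 62.8 CPM in normoxia and 158, 214 and 198 CPM in hypoxia, 1.46 ± 0.23, adjusted p = 0.000322) and in PC3 (108, 136 and 90.2 CPM in normoxia and 167, 166 and 165 CPM in hypoxia, 0.53 ± 0.12, adjusted p = 0.0117). In these lines no hypoxic library fell within the normoxic range. T47D gave 34.8, 37.8 and 51.1 CPM in normoxia and 67.5, 73.2 and 46.0 CPM in hypoxia, with overlap (0.52 ± 0.22, adjusted p = 0.133). LAMB1, its usual beta partner, rose in HCT-116 only by the call, from 21.3 to 30.1 CPM to 54.2 to 90.9 CPM (1.36 ± 0.22, adjusted p = 0.000390), and gave 0.23 ± 0.14, -0.03 ± 0.12 and 0.21 ± 0.20 in A549, PC3 and T47D, each with overlap. The difference between lines passed the test for LAMB1 (interaction adjusted p = 0.00325) and LAMC1 (0.0370). With the GC and length correction LAMB1 was called downregulated in PC3 (-0.28, adjusted p = 0.0486). LAMB1 shares 300 exonic bases with DLD on the opposite strand. LAMB2 was called in A549, where it went from 81.2 to 92.8 CPM to 103 to 163 CPM (0.64 ± 0.15, adjusted p = 0.00710), and this call was not kept with the GC and length correction (0.27, adjusted p = 0.0814).

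LAMA5 moved in opposite directions in 2 lines. It lies on chromosome 20, 60883011 to 60942368, minus strand (GRCh37). A549 gave 294, 383 and 379 CPM in normoxia and 715, 716 and 431 CPM in hypoxia (0.81 ± 0.18, adjusted p = 0.00553) and HCT-116 218, 225 and 132 CPM in normoxia and 68.1, 112 and 97.3 CPM in hypoxia (-1.19 ± 0.26, adjusted p = 0.00237). The groups did not overlap in either line. PC3 (245, 213 and 270.2 CPM in normoxia and 260.4, 276 and 295 CPM in hypoxia, 0.14 ± 0.12, adjusted p = 0.389) and T47D (324, 450.1 and 131 CPM in normoxia and 222, 279 and 117 CPM in hypoxia, -0.65 ± 0.40, adjusted p = 0.290) overlapped. The effect differed between lines (interaction adjusted p = 0.0224). LAMA5 had the highest GC content of the subunits and chains, 66.4%, and with the GC and length correction the A549 change was 0.15, adjusted p = 0.369, the HCT-116 change -2.42, adjusted p = 3.59e-05 and the T47D change -1.22, adjusted p = 0.0386, so that the upward call was lost and a downward call was added in T47D and in PC3 (-0.56, adjusted p = 0.0283). LAMA5 shares 244 exonic bases with ADRM1 on the opposite strand.

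LAMA2, the muscle laminin alpha chain, was expressed in HCT-116 alone and fell there from 10.5, 10.7 and 11.7 CPM to 5.49, 4.94 and 5.20 CPM (-1.19 ± 0.21, adjusted p = 0.000651), without overlap. LAMA1, an embryonic alpha chain, rose in PC3 from 0.926 to 1.42 CPM to 2.06 to 2.22 CPM (0.78 ± 0.25, adjusted p = 0.0372), and LAMC3 from 4.93 to 6.46 CPM to 8.20 to 9.28 CPM (0.56 ± 0.15, adjusted p = 0.0175). The LAMA1 call was lost without hypoxia replicate 1 (0.79, adjusted p = 0.0759), hypoxia replicate 2 (0.75, adjusted p = 0.116), hypoxia replicate 3 (0.79, adjusted p = 0.0861), normoxia replicate 1 (0.80, adjusted p = 0.0784) or normoxia replicate 3 (0.64, adjusted p = 0.0846). The LAMC3 call was lost without hypoxia replicate 2 (0.51, adjusted p = 0.0768) or normoxia replicate 1 (0.48, adjusted p = 0.0651). Neither was kept with the GC and length correction (0.43, adjusted p = 0.191 and 0.07, adjusted p = 0.742). LAMA4, an alpha chain of vessels and muscle, was called in no line.

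Subunits best known from leukocytes were present without leukocyte markers. ITGAE, which with ITGB7 forms the E-cadherin receptor of intraepithelial lymphocytes, stood at 32.6, 32.6 and 23.7 CPM in normoxia and 14.4, 19.6 and 18.7 CPM in hypoxia in A549 (-0.76 ± 0.16, adjusted p = 0.00346). HCT-116 gave 48.6, 92.0 and 36.8 CPM in normoxia and 10.8, 7.87 and 8.12 CPM in hypoxia (-2.86 ± 0.32, adjusted p = 7.97e-05), a 7.26-fold fall, and T47D 30.8, 32.6 and 14.2 CPM in normoxia and 8.44, 5.04 and 13.8 CPM in hypoxia (-1.60 ± 0.38, adjusted p = 0.0183). The groups did not overlap in these lines, although normoxia replicate 3 of T47D at 14.2 CPM lay close to hypoxia replicate 3 at 13.8 CPM. PC3 overlapped, with 9.69, 8.60 and 20.0 CPM in normoxia and 10.1, 9.49 and 8.70 CPM in hypoxia (-0.50 ± 0.29, adjusted p = 0.203). The T47D call was lost without normoxia replicate 1 (-1.44, adjusted p = 0.148) or normoxia replicate 2 (-1.39, adjusted p = 0.104). In HCT-116 normoxia replicate 2 stood highest, and over 17 alternatives, leaving it out among them, the fall ranged from -3.15 to -2.31 and kept its call. The effect differed between lines (interaction adjusted p = 0.0111). ITGAE shares 427 exonic bases with HASPIN on the opposite strand. In bulk RNA, fewer cells of a type and less RNA per cell cannot be told apart.

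ITGB7 fell in HCT-116 at under 1 CPM, from 0.494 to 0.648 CPM to 0.132 to 0.249 CPM (-1.83 ± 0.56, adjusted p = 0.0154), a call lost without hypoxia replicate 1 (-1.60, adjusted p = 0.0668), hypoxia replicate 3 (-1.67, adjusted p = 0.0752) or normoxia replicate 2 (-1.68, adjusted p = 0.0615). It shares 1881 exonic bases with ZNF740 on the opposite strand. ITGB2, the beta subunit of the leukocyte integrins, ranged over 36.6 to 48.9 CPM in PC3 and was not called there, although its groups did not overlap (0.20 ± 0.09, adjusted p = 0.125), and ITGAL, its lymphocyte partner, ranged over 3.71 to 6.40 CPM in T47D. The summed leukocyte markers reached 0.726 CPM in PC3 and 0.140 CPM in T47D.

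Of the 4 symbols that are no subunit, ITGB3BP, a centromere protein first found through its binding to ITGB3, fell in every line. A549 gave 29.1, 29.5 and 22.1 CPM in normoxia and 16.2, 15.6 and 17.5 CPM in hypoxia (-0.72 ± 0.13, adjusted p = 0.00209), HCT-116 116, 269 and 87.9 CPM in normoxia and 23.6, 29.0 and 22.8 CPM in hypoxia (-2.79 ± 0.36, adjusted p = 0.000131) and PC3 22.5, 18.6 and 34.7 CPM in normoxia and 14.1, 13.7 and 14.6 CPM in hypoxia (-0.90 ± 0.21, adjusted p = 0.0121). The groups were apart in these lines. T47D gave 32.4, 44.8 and 14.4 CPM in normoxia and 13.9, 11.9 and 17.4 CPM in hypoxia, where normoxia replicate 3 lay among the hypoxic libraries (-1.18 ± 0.34, adjusted p = 0.0403). The T47D call was lost with the replicate number as a block (-1.05, adjusted p = 0.0605), with the GC and length correction (-0.77, adjusted p = 0.139), and without hypoxia replicate 1 (-1.14, adjusted p = 0.0726), hypoxia replicate 2 (-1.04, adjusted p = 0.0657), normoxia replicate 1 (-1.12, adjusted p = 0.201) or normoxia replicate 2 (-0.78, adjusted p = 0.206). The effect differed between lines (interaction adjusted p = 0.0150). ITGB3BP shares 131 exonic bases with EFCAB7 and 197 with PGM1, both on the opposite strand.

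ITGB1BP1, which binds the tail of ITGB1, fell in HCT-116 (88.8, 111 and 67.6 CPM in normoxia and 57.0, 41.0 and 39.9 CPM in hypoxia, -1.08 ± 0.24, adjusted p = 0.00227), and its groups did not overlap there. It shares 2209 exonic bases with ASAP2 on the opposite strand. ITGB1BP2, a muscle protein that binds the same tail, fell in HCT-116 from 0.494 to 1.54 CPM to 0 to 0.345 CPM (-2.65 ± 0.75, adjusted p = 0.0103), on at most 69 counts in a library, a call lost without normoxia replicate 2 (-2.08, adjusted p = 0.0744). ITGBL1, a secreted protein with integrin-like repeats, rose in PC3 from 88.4 to 103 CPM to 115 to 132 CPM (0.27 ± 0.10, adjusted p = 0.04998), just inside both thresholds, and this call was lost when any 1 of the 6 PC3 libraries was left out (adjusted p = 0.0511 to 0.172). With the GC and length correction it was 0.47, adjusted p = 0.00738. ITGBL1 shares 4356 of its 6176 exonic bases with FGF14 on the opposite strand, and how the authors' counting treated strand is not given in the sources used here.

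The share of each beta subunit in the summed per-kilobase level of all 8 beta subunits is given as a description (mean ± SD, n = 3), with no test. ITGB1 took 82.7% ± 2.08 in normoxic and 70.8% ± 2.73 in hypoxic A549, 71.0% ± 5.70 and 42.4% ± 5.34 in HCT-116, 70.8% ± 2.12 and 55.8% ± 1.67 in PC3, and 50.3% ± 6.94 and 44.1% ± 2.22 in T47D. ITGB4 took 2.51% ± 0.454 and 7.01% ± 1.16 in A549, 20.8% ± 4.44 and 48.7% ± 7.71 in HCT-116, 20.9% ± 1.83 and 33.7% ± 3.27 in PC3, and 23.5% ± 3.81 and 30.1% ± 1.93 in T47D. Mean ITGB4 transcript thus exceeded that of ITGB1 in hypoxic HCT-116, by less than the SD of ITGB4. All these shares are without the GC and length correction. In HCT-116 the log2 fold change was 2.22 for ITGB4 and 0.15 for ITGB1 without it, and 1.34 and 0.53 with it, so that the 2 changes lay closer together. Among the laminin beta chains, LAMB3 took 25.5% ± 6.04 in normoxic and 57.7% ± 5.29 in hypoxic HCT-116, LAMB2 took 81.3% ± 2.10 and 82.2% ± 2.34 in T47D, and LAMB1 took 69.2% ± 2.33 and 60.2% ± 2.58 in A549.

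**Figure D5:**
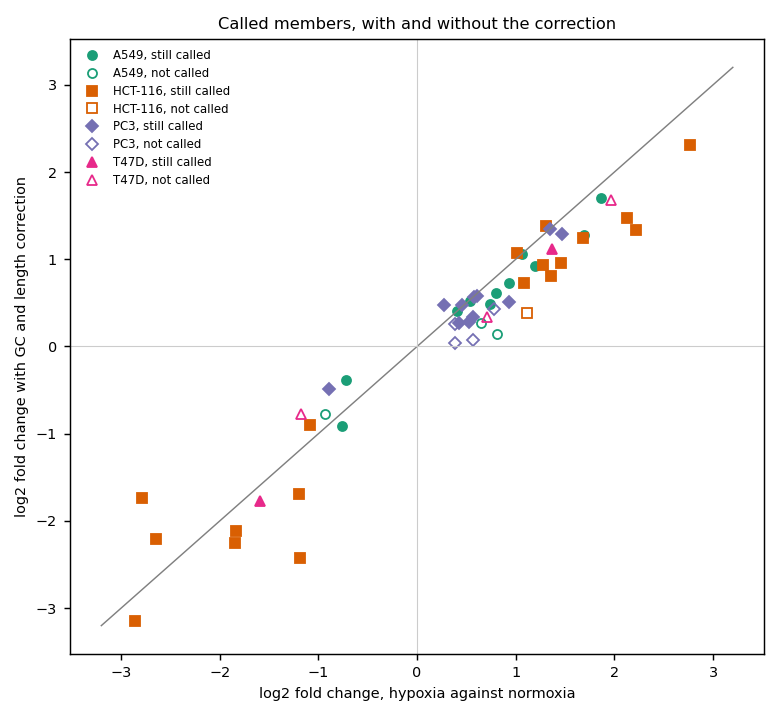
Log2 fold change of the 53 member calls without (horizontal axis) and with (vertical axis) the correction for GC content and transcript length. Filled points were still called, open points were not, the line marks equal values, and 42 of the 53 points are filled.

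The proteins that work with integrins were read from lists. Of 23 focal adhesion genes tested in each line (the plaque that ties integrins to actin), 10 were upregulated in A549 and 0 downregulated, 17 and 1 in HCT-116, 12 and 0 in PC3, and 1 and 0 in T47D. Of the other integrin ligands and basement membrane genes, 7 of 11 tested were upregulated in A549, 2 of 6 in HCT-116, 5 of 9 in PC3 and 1 of 5 in T47D, and 0, 1, 1 and 0 were downregulated. Of the hemidesmosome and other laminin receptor genes, 3 of 6, 2 of 6, 4 of 6 and 1 of 5 were upregulated, and 0, 1, 0 and 0 were downregulated. The shares of all genes called in a line are those given with the member counts.

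Of the 23, 11 and 6 genes of these lists tested in any line, 12 in all were upregulated in at least 3 lines (6.97% of all genes were). The list values are without the GC and length correction and without the block. How many of these calls would be kept with them, or with single libraries left out, is not given here. TLN1, the talin that activates integrins from inside the cell, rose in all 4, by 0.86 ± 0.21 in A549, 1.87 ± 0.28 in HCT-116, 0.56 ± 0.16 in PC3 and 0.91 ± 0.25 in T47D on the log2 scale. DAG1, the laminin receptor dystroglycan, did so by 0.87 ± 0.13, 0.96 ± 0.21, 0.62 ± 0.11 and 0.91 ± 0.24. AGRN, a basement membrane proteoglycan that DAG1 binds, rose in A549 (1.13), PC3 (0.43) and T47D (0.89). The other 9 rose in A549, HCT-116 and PC3. They were FN1, the fibronectin that ITGA5 binds (1.36, 1.32 and 0.59), HSPG2, the proteoglycan perlecan (1.27, 1.61 and 0.94), PLEC, the plectin that links ITGB4 to keratin (1.35, 1.05 and 0.52), FLNA, LIMS2, BCAR1, TNS1, TNS4 and ZYX. TNS1, a tensin of late adhesions, had the largest of these values, 2.53 in A549.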

How the data were processed

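Polyadenylated RNA of 24 libraries (4 lines, 2 oxygen levels, 3 libraries each) was sequenced with a directional kit. According to the submitters' processing notes and the study's methods, the authors trimmed reads with Trim Galore, aligned them to GRCh37 with HISAT2, excluded non-unique reads and counted with HTSeq on UCSC genes. The strand setting is not given in the sources used here. The deposited values are raw counts of reads per gene symbol.

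Counts were tested with edgeR 4.0.16 in R 4.3.3 (quasi-likelihood, TMM factors, filterByExpr, Benjamini-Hochberg adjustment over all genes), in 1 fit per line for hypoxia and 1 fit of 24 libraries for the interaction and the normoxic pairs. Scripts were tested on simulated data. Levels are CPM with TMM factors, and RPKM divides by the longest GENCODE transcript on GRCh37. Total counts limit precision as given in the report, and the floor covers counting error only. DESeq2 1.42.0, other scalings, filters and thresholds, a replicate block and leaving out each library were the alternatives. A correction for GC content and length (splines, 5 degrees of freedom) was added after seeing the data.

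Same-numbered libraries had a positive r in every line: 0.150 to 0.325 in T47D, 0.0826 to 0.207 in A549, 0.0706 to 0.289 in HCT-116 and 0.0799 to 0.0830 in PC3. Pairs with different numbers reached 0.118 in T47D, 0.0909 in A549 and 0.0804 in HCT-116, and were all negative in PC3. In A549 and HCT-116 the highest r of pairs with different numbers exceeded the lowest r of same-numbered pairs. The mean r of same-numbered pairs was highest in T47D. Whether same-numbered libraries were paired was not tested. Blocked values are given for T47D where they change a call, and for some other results. Calls that the block alone changed in other lines are named below.

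The members and gene lists were chosen with earlier results of these data known. Genes were named by rule: members called in at least 2 lines, the 3 largest increases and decreases per line at 1 CPM or more, the 5 highest per kilobase, the 5 smallest interaction p-values, and list genes called in at least 3 lines. Other called members were named after their values were seen. Results of some items are not reported here.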

Additional observations from a re-analysis of the deposited data

Results flagged for a closer look

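The change with hypoxia differed between the 4 lines for 11 members that were tested in each line, by the interaction test of edgeR over all 24 libraries. This test was not run with the GC and length correction. Under 30 alternatives ITGB5 passed in 21, LAMC1 in 10 and ITGA3 in 5, and each of the others in at least 28. The adjusted p was 0.00198 for LAMA3, 0.00325 for LAMB1, 0.00644 for ITGB4, 0.0111 for ITGAE, 0.0150 for ITGB3BP, 0.0187 for ITGB8, 0.0187 for LAMB3, 0.0224 for LAMA5, 0.0246 for ITGB5, 0.0370 for LAMC1 and 0.0447 for ITGA3. ITGA11 gave 0.0430 in the same test, but with 0 to 7 counts per library outside A549 this value shows no difference between lines. The 3 libraries of a group are too few for a search for single libraries that stand apart.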

How the results depend on the processing

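Precision rests on 3 libraries a group. With 1 fit of all 24 libraries, downregulated members numbered 0 in A549 and 0 in PC3, and upregulated members 3 in PC3 and 8 in T47D. At a mean count of at least 50, 5 were downregulated in HCT-116. At an adjusted p under 0.01, HCT-116 had 5 downregulated, PC3 4 upregulated and 0 downregulated, T47D 0 and 0, and 3 members had an interaction. At a fold change over 1.5, 5 were upregulated in PC3. With the GC and length correction 4 were downregulated in PC3 (4 with the replicate block too) and 1 upregulated in T47D, and with the block 4 were downregulated in T47D. With the replicate block alone, 1 was downregulated in T47D, ITGB4 in T47D, ITGA9 in HCT-116 and ITGB3 in PC3 gained a call, ITGB3BP in T47D lost it, and no other call of a member in hypoxia changed. At 1 RPKM, 19 members counted as expressed in A549. Leaving out 1 library at a time gave 5 to 9 downregulated in HCT-116, 8 to 15 upregulated and 1 to 2 downregulated in PC3, 0 to 7 upregulated and 0 to 3 downregulated in T47D, and 4 to 15 members with an interaction. A reversal is counted here where the value changed sign and was called under the alternative. That held with the GC and length correction for ITGAV in HCT-116 (0.57, and 0.60 with the block), LAMA5 in PC3 (-0.56 and -0.52) and LAMB2 in PC3 (-0.33 and -0.33), and with the correction and block also for LAMB2 (-0.49) and LAMC3 (-0.52) in HCT-116, which had the same signs but no call without the block (-0.44 and -0.52). In all, 28 of the 127 values changed sign with the correction and 27 with the block added, 0 and 0 of them calls of the report. The cause was not tested. DESeq2 and RLE size factors reversed 0 member values. Scaling by total counts moved the median of all genes to -0.13 in A549 and -0.12 in T47D.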

Other observations

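Some members were expressed in 1 line alone. ITGA11, a collagen receptor subunit, ranged over 9.66 to 15.1 CPM in A549, ITGAM, a myeloid subunit, over 1.98 to 2.90 CPM in A549, ITGA10 over 3.35 to 12.1 CPM in T47D, LAMA1 over 0.926 to 2.22 CPM in PC3 and ITGBL1 over 88.4 to 132 CPM in PC3. ITGA8, an alpha subunit of mesenchymal cells, was at 0 in all 24 libraries, beside a floor of 0.0477 to 0.132 CPM for 3 counts.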
